A study of Mus musculus with 8 samples.

Results

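Progress through the cell cycle depends on genes that license and copy DNA and then divide the chromosomes. A list of 40 such mouse genes was examined in SOX9 CUT&Tag profiles of the spinal cord, 40 of the 21670 protein-coding genes on the assembled chromosomes 1 to 19 and X. The members were chosen by name for their known roles in the cell cycle and mitosis, not by a measured value. Earlier results of these data were known when the list was made. They comprised 8 cyclins, 4 cyclin-dependent kinases (CDKs), 2 CDK inhibitors, 2 E2F factors, 8 genes of origin licensing, 4 of DNA synthesis, 10 of mitosis and 2 widely used proliferation markers, Mki67 and Top2a. For each gene, coverage was read within 1 kb of the transcription start site (TSS), called the promoter here, and over the gene body with 5 kb on either side.

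SOX9 is an HMG-box transcription factor of astrocytes and ependymal cells in the adult cord, and CUT&Tag uses an antibody and a tethered transposase to release DNA fragments near the protein it recognizes. Nuclei came from adult WT mice, either uninjured or 1 day after a contusion injury of the cord (1 d.p.i.), from 5-mm segments centred on the lesion or taken at the matching level. Each of the 4 groups, SOX9 and secondary-only control at each condition, held 1 male (M) and 1 female (F) library, so that the replicate and the sex are the same thing. The comparison asks whether SOX9 antibody signal at these genes differed 1 day after injury. Nuclei came from frozen tissue and were sorted on 7AAD, a DNA dye. The methods of the study refer to an earlier sort in which nuclei were also stained for NEUN, a neuronal marker, or SOX10, a marker of the oligodendrocyte lineage. Whether these antibodies were used to select nuclei for the present libraries is not given. The libraries are bulk, and a different share of nuclei of a type cannot be told apart from a different signal per nucleus. The study pooled animals within a condition in its sequencing experiments, and how many entered each of these libraries is not given in the sources used here.

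The cell cycle is driven by CDKs whose activity depends on cyclins. D-type cyclins with Cdk4 or Cdk6 begin the release of E2F factors from the retinoblastoma protein, E2F factors turn on genes of DNA replication, and B-type cyclins with Cdk1 take the cell into mitosis. In the adult cord most cells are out of the cycle, and contusion is known to bring ependymal cells, astrocytes and microglia back into division over the following days.

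Depth differed between the libraries. Without injury the male SOX9 library had 1891276 fragments and the female 7216730, and at 1 d.p.i. the male had 2529356 and the female 2385009. The deepest SOX9 library was thus 3.82 times as deep as the shallowest, and the 2 extremes were the M and the F library of the uninjured group. Secondary-only controls were far shallower, with 22752 fragments in uninjured M, 46846 in uninjured F, 52950 in 1 d.p.i. M and 10906 in 1 d.p.i. F. Coverage per base was divided by the mean of its own library over the genome, so that a value of 1 is the library mean. On this scale a single fragment of average length in a promoter window was worth 0.720 in uninjured M, 0.189 in uninjured F, 0.539 in 1 d.p.i. M and 0.571 in 1 d.p.i. F. In the controls it was worth between 25.7 and 125, so that single promoters cannot be compared with them.

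The control fragments at these genes were few and mostly shared their ends with a SOX9 library. Of the 142 control fragments that started in the gene body windows of the members, 119 (83.8%) had both ends at the same positions as a fragment of a SOX9 library. By library these were 25 of 26 in uninjured M, 41 of 47 in uninjured F, 44 of 59 in 1 d.p.i. M and 9 of 10 in 1 d.p.i. F. After a shift of 500 bp the number was 0 in each of the 4 controls. Between a SOX9 library and the other SOX9 libraries the share was 11.1% and 4.97% (uninjured M and F) and 11% and 11.4% (1 d.p.i. M and F). The source of the shared ends was not tested, and the controls below are given as values only.

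Markers of the cell types of the cord, in lists of 10 genes each, were read in the same promoter windows to check the tissue. The mean over the oligodendrocyte lineage list was 12.4 (uninjured M), 18.2 (uninjured F), 17.6 (1 d.p.i. M) and 12.2 (1 d.p.i. F) times the library mean. The astrocyte list had 6.18, 6.27, 7.99 and 5.69 in the same order, and the neuron list 7.06, 9.73, 7.56 and 5.64. The ependymal list had 4.08, 9.05, 6.78 and 6.11. The mean over all coding promoters was 4.84, 8.87, 6.75 and 5.65, so that the astrocyte list was below it in uninjured F, the ependymal list below it in uninjured M and the neuron list slightly below it in 1 d.p.i. F. Lower means were found for the microglia and macrophage list (2.25, 3.47, 3.22 and 2.56) and for the endothelial and mural list (1.5, 2.0, 1.34 and 1.74). The neutrophil and monocyte list had 1.28, 0.911, 1.19 and 0.981, and 3 of its 10 promoters had a mean of at least 0.5. The limma test described below called 0 genes of the 7 lists. At an unadjusted p under 0.05 it gave 0 promoters and 1 gene body each of the microglia and macrophage list (higher), the ependymal list (higher) and the endothelial and mural list (lower). Both 1 d.p.i. libraries lay above both uninjured ones for 0 promoters and 0 gene bodies of the neuron list and below for 4 and 5. For the astrocyte list they lay above for 1 promoter and 6 gene bodies and below for 3 and 0, and for the microglia and macrophage list above for 4 and 5 and below for 1 and 1. The other 4 lists had at most 3 genes each way in either window. Leaving out a library raised this to 7 lower gene bodies (oligodendrocyte list without uninjured M, endothelial and mural list without uninjured F). In the microglia and macrophage list, 8 gene bodies were higher without uninjured F and 4 promoters were lower without uninjured M. With a library left out, 4 to 9 promoters and 5 to 9 gene bodies of the neuron list were lower and 6 to 9 gene bodies of the astrocyte list were higher. Other counts went the opposite way. Without uninjured F, 3 promoters and 3 gene bodies of the neuron list were higher. Without 1 d.p.i. M, 6 promoters and 3 gene bodies of the astrocyte list were lower, and without 1 d.p.i. F 5 of its promoters were higher. The shares over all genes tested are given below, and no test was made of a list. Promoter coverage is not expression, and these levels name no cell type as the source of the signal.

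Coverage at the promoters of the cell cycle genes was above the library mean, and its difference between the groups was smaller than the spread between replicates. The mean over the 40 promoters was 5.71 in uninjured M, 10.5 in uninjured F, 8.09 in 1 d.p.i. M and 6.90 in 1 d.p.i. F, from 345, 2306, 644 and 526 fragments. The 2 uninjured libraries were the lowest and the highest of the 4, with both injured libraries between them. The group means were 8.11 ± 3.4 (SD, n = 2) uninjured and 7.49 ± 0.839 (SD, n = 2) at 1 d.p.i., a ratio of 0.924 with p = 1 (two-sided exact permutation test). With 2 libraries against 2, the smallest p such a test allows is 0.333. Over all 21670 coding promoters the ratio was 0.905. In M the members' ratio was 1.42 and in F it was 0.656, beside 1.4 and 0.637 over all coding promoters. The ratio was 0.713 without the uninjured M library and 1.31 without the uninjured F library, and it was 1.01 when libraries were scaled by their median over coding promoters. Cdk4 alone held 11.8% of the summed promoter coverage.

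In the controls the same mean was 15.0 in uninjured M, 9.98 in uninjured F, 9.98 in 1 d.p.i. M and 7.92 in 1 d.p.i. F, from 9, 14, 14 and 2 fragments. Over the 4 controls it was 10.7 ± 3.01 (SD, n = 4) and over the 4 SOX9 libraries 7.80 ± 2.05 (SD, n = 4). By the methods of the study, part of the nuclei of each sample was set aside for its control, so the 2 sets share samples. The 2 sets overlapped, and 20 of the 40 members had no control fragment in their promoter. Over gene bodies the controls had a mean of 2.16 ± 0.295 (SD, n = 4) and the SOX9 libraries 1.93 ± 0.244 (SD, n = 4).

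**Figure D1:**
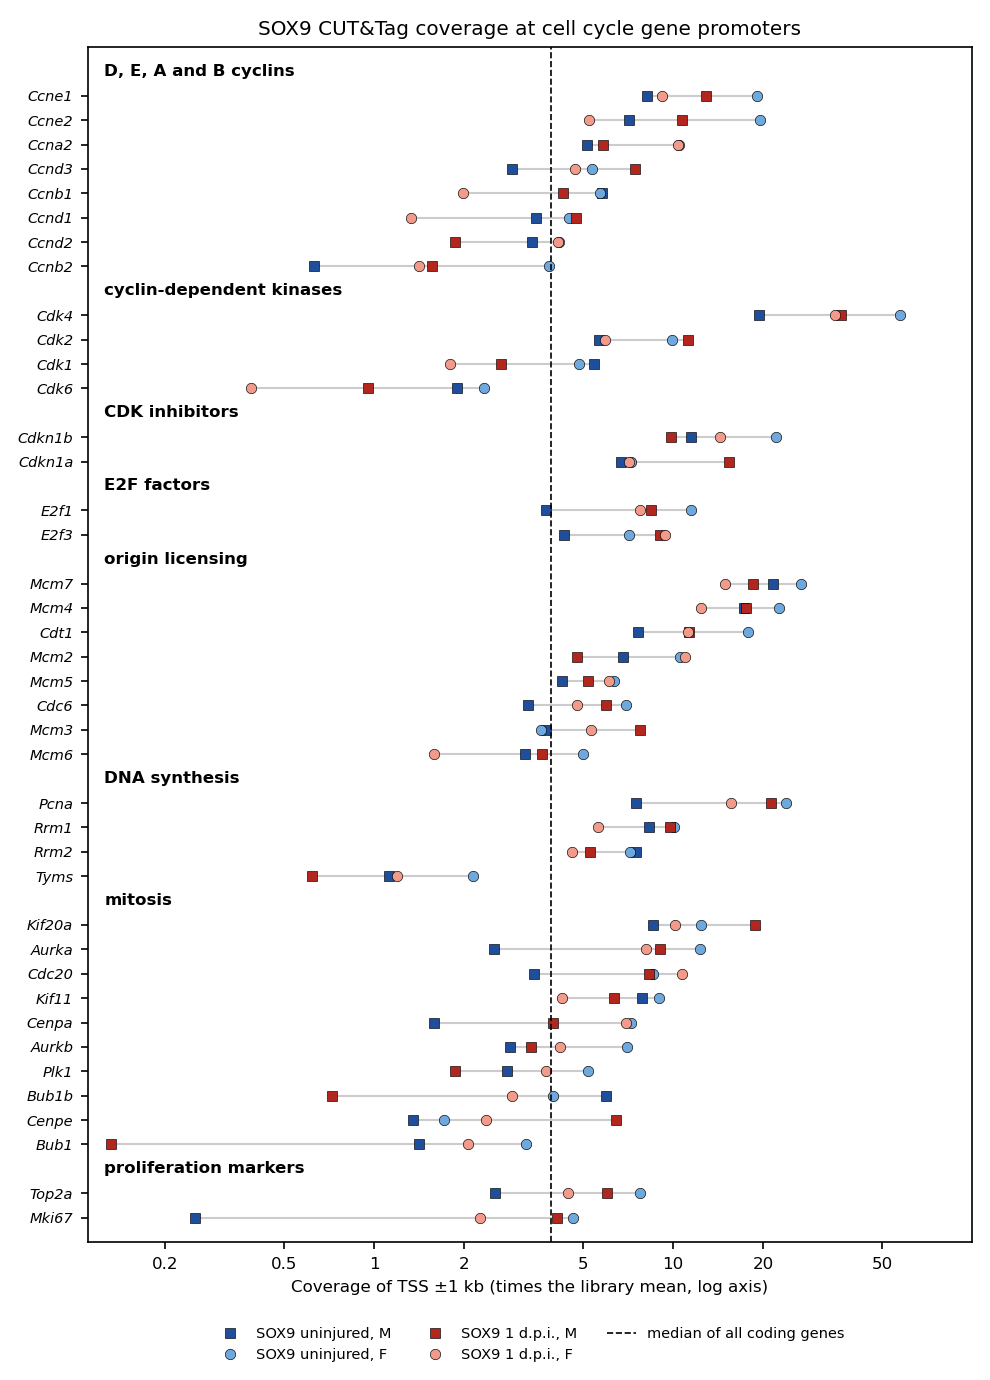
Promoter coverage (TSS ± 1 kb, times the library mean, log axis) of each of the 40 members, grouped by role, with 1 point for each of the 4 SOX9 libraries. Cdk4 has the highest mean of the 4 libraries, with values from 19.3 to 57.4, and uninjured F is above uninjured M for 35 of the 40 genes.

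No member passed the threshold in a test over single promoters. limma on log2(coverage + 0.5) over 18146 coding promoters called 2 (0.0110%) at a Benjamini-Hochberg adjusted p under 0.05, both higher at 1 d.p.i., and 0 of the 40 members. The 2 calls were lost, and the members' count was 0, when any of the 4 SOX9 libraries was left out. At an unadjusted p under 0.05 there were 320 promoters (1.76%), 159 of them higher and 161 lower, and 1 of the 40 members, Bub1b, lower. The members' count became 0 with trimmed-mean scaling, fragment starts, thinned libraries or the replicate block, which is sex, and 4 in a fit of all 8 libraries. It also changed as single libraries were left out. The shares over all promoters are not given for these settings, so these counts have no background beside them. limma draws the spread between the 2 libraries of a group towards that of promoters of like mean coverage. An SE or p-value here is thus not a measure of the replicates of a single promoter. The SE was 0.668 for Rrm2, whose replicates were close, and 0.735 for Mki67, with 0.25 and 4.62 uninjured. The 2 libraries of a group differ in sex and depth and may differ technically. The median log2 change was −0.18 over the members and −0.06 over all promoters tested, and scaling by a trimmed mean moved the latter to −0.11. The median over the members was −0.54 without uninjured M and 0.38 without uninjured F, beside −0.46 and 0.30 over all promoters tested, and it was −0.05 with fragment starts and 0.01 with a filter at 2. Both 1 d.p.i. libraries lay above both uninjured libraries for 3 of the 40 members (E2f3, Mcm3 and Cenpe), against 8.24% of all promoters tested. Both lay below for 7 of 40 (Ccnb1, Cdk1, Cdk6, Mcm7, Rrm2, Bub1b and Kif11), against 14.5%. Median scaling raised the number of members that lay above. Both counts rest on each library, as do the shares over all promoters tested. Without the uninjured M library 30 members were lower (60.8% of all promoters tested), and without the uninjured F library 22 were higher (50.6%). Without 1 d.p.i. M the counts were 5 higher (18.3%) and 12 lower (33.4%), and without 1 d.p.i. F they were 8 (22.5%) and 13 (25.0%).

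The M and the F pair moved in different directions at many of these promoters. Coverage was higher in uninjured F than in uninjured M at 35 of the 40 members, against 74.4% of all coding promoters. At 1 d.p.i. it was higher in F than in M at 13 of 40, against 37.7%. From uninjured to 1 d.p.i., 27 of the 40 members were higher in M (68.9% of all promoters tested) and 5 were higher in F (23.6%), and 24 had opposite signs in the 2 sexes (64.7%). The median log2 difference was 0.47 in M and −0.60 in F over the members, and 0.42 and −0.54 over all promoters tested. Sex, depth and library cannot be told apart here.

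**Figure D2:**
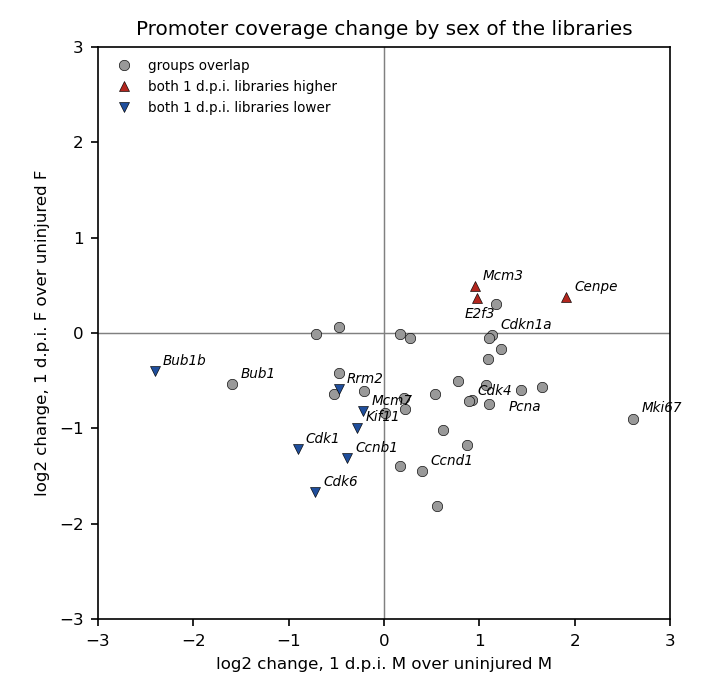
Difference in log2(promoter coverage + 0.5) between 1 d.p.i. and uninjured in M (x axis) and in F (y axis), with 1 point per member and triangles for members whose groups did not overlap. Of the 40 members, 27 lie to the right of 0 and 5 lie above 0, and 24 have opposite signs in M and F.

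The 8 cyclins, the regulatory subunits of the CDKs, had a mean promoter coverage of 4.57 (uninjured M), 9.08 (uninjured F), 6.17 (1 d.p.i. M) and 4.79 (1 d.p.i. F). Uninjured F stood above the other 3 libraries. The highest of them by the mean of the 4 libraries was Ccne1, whose product activates Cdk2 at the start of S phase, with 8.19 and 19.1 uninjured and 12.9 and 9.17 at 1 d.p.i. (M and F throughout). Both injured values lay between the 2 uninjured ones. Of the D cyclins, which couple growth signals to the cycle, Ccnd1 had 3.47 and 4.49 uninjured and 4.74 and 1.33 at 1 d.p.i., its injured libraries being the highest and the lowest. Its fragments numbered 4, 28, 9 and 3. Ccnd2 had 3.38 and 4.14 against 1.87 and 4.12, where 1 d.p.i. M alone was apart from the rest. Ccnd3 had 2.9 and 5.34 against 7.46 and 4.71, and its groups overlapped. The fitted log2 changes of Ccnd1, Ccnd2 and Ccnd3 were −0.52, −0.36 and 0.53, each with a standard error between 0.672 and 0.693. As each library was left out they ranged from −1.28 to 0.24, from −0.84 to 0.12 and from 0.14 to 0.92.

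Ccnb1 and Ccnb2 encode the B cyclins that bind Cdk1 at entry into mitosis. Ccnb1 had 5.77 and 5.68 uninjured and 4.29 and 1.98 at 1 d.p.i. Its 2 uninjured values were nearly equal and both injured ones were lower, with a log2 change of −0.85 (SE 0.678, limma adjusted p = 1.00), from −1.33 to −0.38 with a library left out. Ccnb2, among the 4 lowest members by that mean, had 0.627 and 3.83 uninjured and 1.55 and 1.41 at 1 d.p.i., from 2, 19, 4 and 2 fragments. The ratio of its depth-scaled fragments, both libraries of a group summed, was 0.530 with a counting interval from 0.175 to 1.36, and that of Ccnd1 was 0.695 (0.326 to 1.39). Here and below such intervals have a 95% level and take in counting error alone. Summing gives most weight to uninjured F, which had 2306 fragments in the 40 promoters beside 345 in uninjured M. No such ratio was formed over all coding genes, so 1 is not a measured background. Promoter intervals below 1 were those of Ccne1 (0.458 to 0.924), Ccne2 (0.372 to 0.813), Mcm7 (0.484 to 0.894) and Cdkn1b (0.484 to 0.974). Above 1 lay those of the Cdkn1a promoter (1.09 to 2.42) and the Cdk6 gene body (1.16 to 1.57). Gene body intervals below 1 were those of Ccnd1 (0.516 to 0.836), Ccne2 (0.542 to 0.965), Cdk4 (0.710 to 0.917) and Mcm2 (0.692 to 0.987). So were those of Mcm7 (0.640 to 0.908), Aurkb (0.558 to 0.888) and Cdc20 (0.653 to 0.985). The share of such intervals over all coding genes is not given. In all, 9 of the 40 promoters had 3 or fewer fragments in at least 1 SOX9 library. Ccne2, the paralogue of Ccne1, and Ccna2, the cyclin of S phase and G2, had means over the 4 libraries of 10.7 and 7.95, and the groups of both overlapped.

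The CDKs included the promoter with the highest mean of the 4 libraries. Cdk4, the kinase of the D cyclins, had 19.3 (uninjured M), 57.4 (uninjured F), 36.4 (1 d.p.i. M) and 34.7 (1 d.p.i. F), from 35, 312, 90 and 71 fragments. The 2 injured libraries were close to each other and lay between the uninjured ones. Its mean of 37.0 was at percentile 98.9 of all coding promoters, and its log2 change was 0.09 (SE 0.763), from −0.68 to 0.86 with a library left out. The ratio of its group means was 0.927 and that of depth-scaled fragments 0.860, both opposite in direction to the fitted change. Cdk6, the other D cyclin kinase, was at the opposite end, with 1.89 and 2.32 uninjured and 0.95 and 0.387 at 1 d.p.i. Both injured values were below both uninjured ones, but they rested on 3, 14, 2 and 1 fragments, and the ratio of depth-scaled fragments was 0.327 with a counting interval from 0.0614 to 1.13.

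Cdk1, the kinase that drives mitosis, had 5.43 and 4.85 uninjured and 2.66 and 1.80 at 1 d.p.i., from 8, 26, 4 and 5 fragments. The groups did not overlap, and the log2 change was −1.06 (SE 0.689, limma adjusted p = 1.00). It was −0.91 in M and −1.22 in F, and from −1.29 to −0.83 with a library left out. Over the gene body of Cdk1 the values were 0.834 and 1.04 uninjured and 1.05 and 1.1 at 1 d.p.i., so that uninjured F and 1 d.p.i. M were almost equal. The log2 change there was 0.13 (SE 0.187), and the fragment ratio was 1.07 with a counting interval from 0.755 to 1.51. Cdk2, the kinase of the E cyclins, had a promoter mean of 8.17 and overlapping groups.

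The 2 CDK inhibitors hold cells in G1. Cdkn1a, which encodes p21, had 6.70 and 7.24 uninjured and 15.3 and 7.11 at 1 d.p.i. The high value was that of 1 d.p.i. M alone, and 1 d.p.i. F lay between the uninjured libraries. The log2 change was 0.56 (SE 0.670, limma adjusted p = 1.00), with 1.13 in M and −0.02 in F and 0.03 without 1 d.p.i. M. Cdkn1b, which encodes p27, had 11.4 and 22.1 uninjured and 9.83 and 14.3 at 1 d.p.i., with overlapping groups and a log2 change of −0.41 (SE 0.686), from −0.87 to 0.05 with a library left out.

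The E2F factors act on the genes of S phase. E2f3 had 4.32 and 7.12 uninjured and 9.01 and 9.37 at 1 d.p.i., both injured values being above both uninjured ones. Its log2 change was 0.68 (SE 0.668, limma adjusted p = 1.00), from 0.35 to 1.01 as each library was left out. E2f1 had a mean of 7.86 over the 4 libraries and overlapping groups.

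Origins of replication are licensed by Cdc6 and Cdt1, which load the MCM helicase encoded by Mcm2 to Mcm7. These 8 promoters had a mean of 8.47 and 12.4 uninjured and 9.32 and 8.41 at 1 d.p.i., and 1 d.p.i. F was the lowest and uninjured F the highest. Mcm7 had 21.6 and 26.7 uninjured and 18.5 and 14.9 at 1 d.p.i. The injured values were both lower, with a log2 change of −0.52 (SE 0.710, limma adjusted p = 1.00), from −0.67 to −0.37 with a library left out. Mcm4 had 17.3 and 22.6 against 17.5 and 12.4, where 1 d.p.i. M was level with uninjured M. Mcm3 went the other way, with 3.76 and 3.62 uninjured and 7.73 and 5.31 at 1 d.p.i., a log2 change of 0.72 (SE 0.672, limma adjusted p = 1.00) that ranged from 0.47 to 0.97 with a library left out. The groups of Mcm3 did not overlap, yet its fragments numbered 6, 25, 13 and 12. Cdt1 had 7.63 and 17.7 uninjured and 11.3 and 11.2 at 1 d.p.i., the injured pair lying between the uninjured libraries. The other 4 genes of this role, Cdc6, Mcm2, Mcm5 and Mcm6, had means between 3.35 (Mcm6) and 8.27 (Mcm2) and overlapping groups. Mcm6 had 3.18 and 4.99 uninjured and 3.63 and 1.58 at 1 d.p.i.

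Of the genes of DNA synthesis, Pcna, the sliding clamp of the replicative polymerases, had 7.51 and 23.9 uninjured and 21.2 and 15.6 at 1 d.p.i. Uninjured M was the low library and the other 3 were within 15.6 to 23.9. Tyms, which makes thymidylate, had the promoter with the lowest mean of the 4 libraries in the list, with 1.12 and 2.1 uninjured and 0.621 and 1.19 at 1 d.p.i. These rested on 2, 9, 1 and 3 fragments, and the ratio of depth-scaled fragments was 0.674 with a counting interval from 0.157 to 2.27. Rrm1 and Rrm2 encode the subunits of ribonucleotide reductase. Rrm2 had 7.52 and 7.17 uninjured and 5.26 and 4.59 at 1 d.p.i. The spread within each group was small and the groups did not overlap. The log2 change was −0.53 (SE 0.668, limma adjusted p = 1.00), from −0.62 to −0.44 with a library left out. That SE follows promoters of like mean coverage more than the replicates of Rrm2. Rrm1 had a mean of 8.43 and overlapping groups.

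The 10 genes of mitosis had a mean promoter coverage of 3.82 and 7.05 uninjured and 5.90 and 5.54 at 1 d.p.i., the injured libraries again lying between the uninjured ones. Bub1b, which encodes the checkpoint kinase BubR1, had 5.96 and 3.97 uninjured and 0.719 and 2.88 at 1 d.p.i., from 7, 20, 2 and 5 fragments. Both injured values were below both uninjured ones, and the log2 change of −1.40 (SE 0.705) had an unadjusted limma p of 0.0463 and an adjusted p of 1.00. It ranged from −2.14 to −0.67 as each library was left out. The ratio of its depth-scaled fragments was 0.480 with a counting interval from 0.177 to 1.13, which includes 1. Bub1, a further kinase of the spindle checkpoint, had 1.41 and 3.21 against 0.132 and 2.06, with 2, 17, 1 and 4 fragments. Its groups overlapped, and its fragment ratio was 0.488 with a counting interval from 0.142 to 1.35.

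Cenpe, the kinesin that carries chromosomes to the spindle equator, had 1.35 and 1.71 uninjured and 6.43 and 2.37 at 1 d.p.i. Most of its difference was that of 1 d.p.i. M. The log2 change was 1.14 (SE 0.716, limma adjusted p = 1.00), the largest positive value among the 40 promoters, and it ranged from 0.51 to 1.78 as each library was left out. Its fragments numbered 2, 13, 12 and 4, with a ratio of 1.98 and a counting interval from 0.915 to 4.29. Kif11, the motor that separates the spindle poles, had 7.84 and 8.96 uninjured and 6.34 and 4.26 at 1 d.p.i., lower in both injured libraries (log2 change −0.64, SE 0.668, limma adjusted p = 1.00, from −0.90 to −0.38 with a library left out). Kif20a, a kinesin of cytokinesis, had 8.57 and 12.4 against 18.9 and 10.1, so that 1 d.p.i. M was high and 1 d.p.i. F lay between the uninjured libraries. The other 5, the kinases Aurka, Aurkb and Plk1, the anaphase activator Cdc20 and the centromeric histone Cenpa, had means between 3.39 (Plk1) and 7.98 (Aurka) and overlapping groups.

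Mki67, which encodes the Ki-67 protein used to stain cycling cells, had 0.25 and 4.62 uninjured and 4.08 and 2.25 at 1 d.p.i. The low value of uninjured M was a single fragment, beside 34, 8 and 5 in the other libraries, and the ratio of depth-scaled fragments was 0.688 with a counting interval from 0.334 to 1.33. The fitted log2 change of 0.86 (SE 0.735) and the fragment ratio thus pointed in opposite directions, and the former was from −0.53 to 2.24 with a library left out. Top2a, the topoisomerase that untangles sister chromatids, had 2.53 and 7.75 uninjured and 5.98 and 4.43 at 1 d.p.i., with the injured libraries between the uninjured ones. For both markers the M pair was higher at 1 d.p.i. and the F pair lower.

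Gene bodies gave smaller differences between libraries. The summed coverage of the 40 gene body windows was 1.65 (uninjured M), 2.22 (uninjured F), 2.01 (1 d.p.i. M) and 1.83 (1 d.p.i. F) times the library mean, from 1619, 8083, 2603 and 2248 fragments. The uninjured libraries were again the lowest and the highest. The group means were 1.94 ± 0.403 and 1.92 ± 0.127 (SD, n = 2 each), a ratio of 0.991 with p = 1 (two-sided exact permutation test). The ratio was 0.863 without the uninjured M library, 1.16 without the uninjured F library and 1.04 without 1 d.p.i. F. It was 1.07 over gene bodies without their flanks, 1.06 without the promoter windows and 1.00 with median scaling, so that its direction depends on the window and the libraries used. The limma fit over 17671 gene bodies called 1 (0.00566%), higher at 1 d.p.i., and 0 of the 38 members that passed the filter on low values. Leaving out 1 d.p.i. M or 1 d.p.i. F gave 18 and 5 calls among all gene bodies, and leaving out either uninjured library gave 0. No member was called in any of the 4 cases. At an unadjusted p under 0.05 there were 715 gene bodies (4.05%) and 0 of the 38 members. The members' count was 1 with thinned libraries or a fit of all 8, and it rose above 0 as each library was left out. The shares over all gene bodies are not given for these settings, so these counts have no background beside them. Bub1 and Cenpe did not pass that filter. The median log2 change was 0.01 over the members and −0.03 over all gene bodies tested. It was −0.25 and −0.14 without uninjured M and 0.23 and 0.07 without uninjured F.

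Of the 38 members, 2 had both 1 d.p.i. libraries above both uninjured libraries over the gene body (Cdk1 and Cdkn1a), against 12% of all gene bodies tested. The opposite order was found for 5 of 38 (Ccnd1, Mcm6, Mcm7, Rrm2 and Tyms), against 14.8%. Without the uninjured M library 27 members were lower (55.7% of all gene bodies tested), and without the uninjured F library 25 were higher (45.2%). Without 1 d.p.i. M the counts were 6 higher (22.5%) and 10 lower (32.9%), and without 1 d.p.i. F they were 5 (23.5%) and 6 (25.6%). Cdkn1a had 4.18 and 4.04 uninjured and 6.18 and 4.45 at 1 d.p.i., a log2 change of 0.32 (SE 0.337, limma adjusted p = 1.00), from 0.10 to 0.54 with a library left out. The excess was mainly that of 1 d.p.i. M. Ccnd1 had 3.54 and 4.10 against 3.31 and 2.03, with a log2 change of −0.47 (SE 0.277, limma adjusted p = 1.00), from −0.77 to −0.18 with a library left out. Tyms had 0.672 and 0.835 against 0.477 and 0.502, and Mcm7 had 6.42 and 8.31 against 6.21 and 5.15. The log2 change was −0.34 for both, from −0.43 to −0.24 and from −0.52 to −0.17 with a library left out. In Mcm7 the M libraries were nearly equal and the difference was that of F. Rrm2 had 2.81 and 2.72 against 2.7 and 1.59 (log2 change −0.34), where 1 d.p.i. F alone was apart from the rest, and Mcm6 had 0.779 and 0.745 against 0.461 and 0.640 (log2 change −0.27). With a library left out these 2 changes were from −0.65 to −0.03 and from −0.39 to −0.15. The change of Rrm2 turned slightly positive over the gene body without flanks. Trimmed-mean scaling left 0 members higher and 3 lower, whereas 6 were higher with median scaling, 5 without flanks and 9 without promoter windows. The shares over all gene bodies are not given for these settings. Cenpe, not tested, had 0.365 and 0.311 uninjured and 0.620 and 0.537 at 1 d.p.i., all below the library mean. From uninjured to 1 d.p.i., the gene body was higher in M for 31 of the 38 members, against 63.4% of all gene bodies tested, and in F for 9, against 32.7%.

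Signal at the members was concentrated at the TSS. In 200-bp bins, the highest mean coverage of the 40 members lay from −200 to 0 bp in all 4 SOX9 libraries, at 10.2 and 24.3 uninjured and 15.6 and 13.3 at 1 d.p.i. This was 6.84, 9.89, 6.46 and 7.05 times the mean at 2 to 3 kb from the TSS. The same fold was 4.18, 8.13, 5.91 and 4.85 for all coding genes. It was 6.52, 12.9, 9.39 and 7.55 for coding genes with a CpG-rich promoter, defined below. For all coding genes the same bin was the highest, at 8.17 and 18.7 uninjured and 12.5 and 9.75 at 1 d.p.i. The order of the libraries was the same in both sets of genes, with uninjured F above and uninjured M below the injured pair. By the mean of the 4 libraries, all 40 members had a higher value in the promoter than over the gene body, though in single libraries some did not, among them Ccnb2 in 3 of the 4. The median ratio of the promoter mean to the gene body mean was 3.19 for the members and 1.96 for all coding genes.

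**Figure D3:**
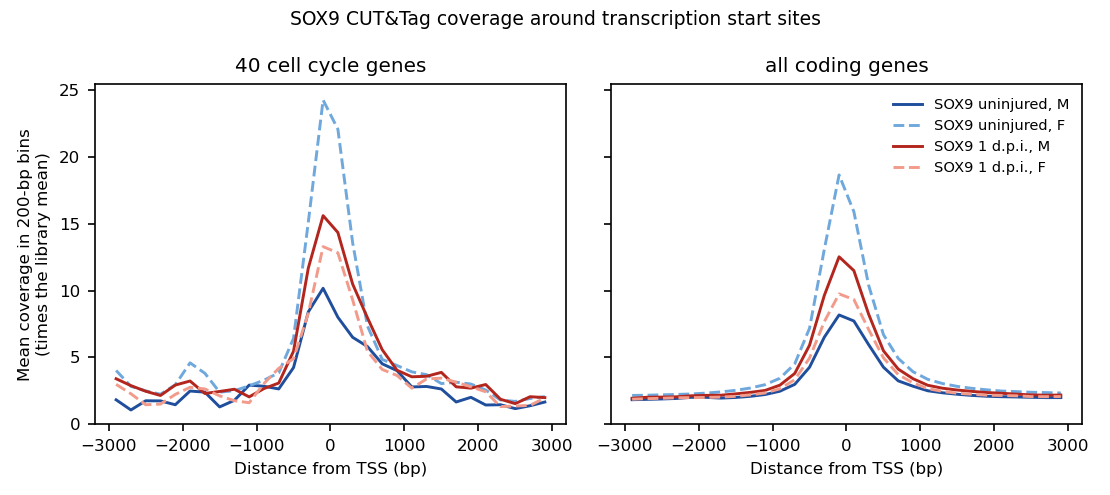
Mean coverage in 200-bp bins (times the library mean) from 3 kb upstream to 3 kb downstream of the TSS for the 40 members (left) and all coding genes (right), with 1 line per SOX9 library. The highest bin of the members lies from −200 to 0 bp in each library, at 10.2 to 24.3.

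Promoter levels of the members were compared with those of coding genes of like base composition. The median over the members of the mean of the 4 libraries was 5.80, beside 3.90 for all coding genes, and 28 of the 40 members lay above that coding median. In single libraries 29 or 30 members did. Coding promoters rich in CpG, defined after the values were seen by an observed to expected CpG ratio over 0.6 and a GC content over 50% within 1 kb of the TSS, numbered 6672 (30.8%) and had a median of 8.82. All other coding promoters had 2.03. Among the members 18 were in the CpG-rich class, with a median of 7.66, and 6 of these lay above the median of the class. The other 22 members had a median of 5.14. Across genes, which are not independent replicates and share the libraries, Spearman's rho between promoter coverage and the CpG ratio was 0.326 over the 40 members and 0.714 over all coding genes. Cdk4 and Mcm7, the 2 members with the highest means of the 4 libraries, were both outside the CpG-rich class. In 4 members the window also held the TSS of another coding gene, Prkdc for Mcm4, Ap4m1 for Mcm7, Cstf1 for Aurka and Brd8 for Kif20a, as in 10.3% of coding genes. Signal of the paired genes cannot be told apart there.

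Letters of known motifs were searched on both strands within 1 kb of the TSS. Only the exact letters given were counted, and a match is a description of the sequence and not a site of binding. The SOX core (ACAAAG or ACAATG) was present in 34 of 40 members (85.0%) and in 87.9% of all coding promoters. The AP-1 motif (TGACTCA or TGAGTCA) was in 5 members (12.5%) against 24.2%. The CCAAT box (CCAAT) was in 37 members (92.5%) against 91.4%, and the cell cycle homology region, CHR (TTTGAA or TTCGAA), in 31 members (77.5%) against 77.9%. The E2F motif (TTTCCCGC, TTTGGCGC, TTTCGCGC or TTTGCCGC) was in 20 members (50.0%), against 10.6% of all coding promoters and 18.4% of the CpG-rich ones. In the shorter window from 250 bp upstream to 50 bp downstream, E2F letters were in 9 members (22.5% against 2.93%), CCAAT in 26 (65.0% against 38.5%) and CHR in 13 (32.5% against 17.0%). The SOX core was in 8 (20.0% against 25.2%) and AP-1 in 0 (against 4.43%).

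The 250 bases upstream of the start are shown for 5 members, taken from RefSeq promoters of build GRCm38.p6, which held 33 of the 40 members. These 5 were chosen after their values were seen, as the promoter with the highest mean (Cdk4), promoters whose injured libraries were both lower (Cdk1 and Bub1b), a promoter with several E2F matches (Mcm6) and a proliferation marker (Top2a). Capitals mark matches to the motifs above on either strand, so that ATTGG is CCAAT read on the opposite strand, and adjoining or overlapping matches run together. Cdk4, at chr10:127063285-127063534 on the plus strand, held 0 matches to the 5 motifs in these bases. Within 1 kb of its TSS, where coverage was read, it held 6 SOX core, 4 CCAAT and 2 CHR matches. Cdk1, at chr10:69352913-69353162 on the minus strand, held 3 CCAAT, 2 CHR and 1 E2F match. Mcm6, at chr1:128359706-128359955 on the minus strand, held 2 CCAAT and 3 E2F matches, 2 of the latter overlapping. Bub1b, at chr2:118597961-118598210 on the plus strand, held 1 SOX core, 1 CCAAT and 1 CHR match. Top2a, at chr11:99024190-99024439 on the minus strand, held 6 CCAAT and 4 CHR matches.
Cdk4: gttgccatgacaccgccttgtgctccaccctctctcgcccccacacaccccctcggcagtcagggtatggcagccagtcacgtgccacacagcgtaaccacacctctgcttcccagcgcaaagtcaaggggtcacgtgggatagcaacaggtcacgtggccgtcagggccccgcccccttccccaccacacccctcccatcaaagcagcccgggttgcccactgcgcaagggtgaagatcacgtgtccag
Cdk1: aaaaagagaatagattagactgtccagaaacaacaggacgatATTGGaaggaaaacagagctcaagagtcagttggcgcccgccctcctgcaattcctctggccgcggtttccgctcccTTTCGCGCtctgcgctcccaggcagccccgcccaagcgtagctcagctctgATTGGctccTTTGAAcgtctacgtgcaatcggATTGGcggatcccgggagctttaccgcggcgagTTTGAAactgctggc
Mcm6: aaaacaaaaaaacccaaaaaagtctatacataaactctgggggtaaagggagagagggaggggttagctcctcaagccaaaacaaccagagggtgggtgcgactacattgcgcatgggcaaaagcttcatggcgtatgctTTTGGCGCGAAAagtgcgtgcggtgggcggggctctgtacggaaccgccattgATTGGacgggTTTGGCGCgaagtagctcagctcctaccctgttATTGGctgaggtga
Bub1b: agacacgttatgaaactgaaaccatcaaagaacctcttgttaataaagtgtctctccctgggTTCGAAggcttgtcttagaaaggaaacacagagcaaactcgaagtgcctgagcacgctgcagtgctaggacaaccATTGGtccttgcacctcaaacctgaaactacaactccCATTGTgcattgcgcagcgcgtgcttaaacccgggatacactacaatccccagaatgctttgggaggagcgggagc
Top2a: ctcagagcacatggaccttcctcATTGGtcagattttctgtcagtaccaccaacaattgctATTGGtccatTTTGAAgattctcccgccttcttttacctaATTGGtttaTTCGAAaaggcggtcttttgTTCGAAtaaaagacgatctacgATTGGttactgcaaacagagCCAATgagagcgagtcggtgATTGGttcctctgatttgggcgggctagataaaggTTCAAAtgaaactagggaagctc

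Beyond the promoters, the 500-bp tile with the highest mean coverage was taken for each member within its gene body window, leaving out the promoter windows of all coding genes. The tiles had means between 1.89 and 27.5 with a median of 4.21. They lay in introns of the member in 9 cases, in its exons in 14, in another gene in 5 and between genes in 12. Both 1 d.p.i. libraries were above both uninjured libraries in 9 of 40 tiles, against 16.6% over the highest tiles of 21667 coding genes, and below them in 6 of 40, against 13.7%. Tiles chosen for a high mean rest on few fragments, and no test was made of single tiles.

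The highest of these tiles was in the first intron of Cdkn1a, at chr17:29094976-29095475, 1207 bp from the TSS. Its coverage was 10.7 (uninjured M), 16.6 (uninjured F), 40.9 (1 d.p.i. M) and 41.9 (1 d.p.i. F), from 6, 30, 30 and 22 fragments. Both injured libraries stood well above both uninjured ones and close to each other, unlike at the promoter of the same gene. The ratio of the group means was 3.04, and that of depth-scaled fragments was 2.68 with a counting interval from 1.72 to 4.22. The size depended on where the tile ended. Coverage of uninjured F was highest just downstream, and that of both injured libraries was lower there than in the tile. With the tile moved 250 bp downstream the values were 11.5, 27.3, 33.5 and 28.9 and the ratio 1.61. Over the tile and the next one it was 2.12, and over 1500 bp around it 1.97. In these 3 windows, which were added after the data were seen, both injured libraries were above both uninjured ones. The tile was singled out after its values were seen, among 40 members, so that its difference is a description.

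**Figure D4:**
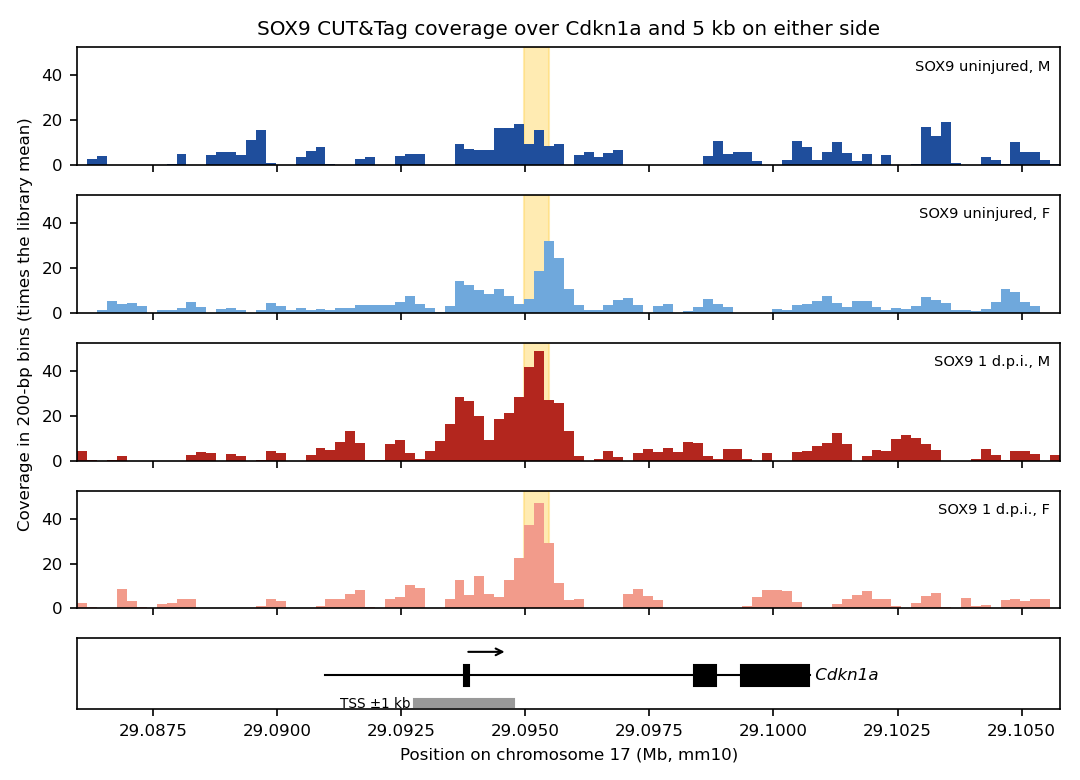
Coverage in 200-bp bins (times the library mean) around Cdkn1a on chr17 in the 4 SOX9 libraries, with the gene record as a line, the exons of the transcript used as black boxes, the promoter window as a grey bar and the tile as a yellow band. In the tile the 1 d.p.i. libraries have 40.9 and 41.9 and the uninjured libraries 10.7 and 16.6.

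Within this tile, 300 bases are shown because they hold its AP-1 letters. They lie at chr17:29095072-29095371 on the plus strand of GRCm38.p6, in the first intron of Cdkn1a. Capitals mark 1 AP-1 match, TGACTCA, and 1 E2F match on the opposite strand, GCGGGAAA. AP-1 letters were in 7 of the 40 tiles (17.5%) and in 9.74% of the highest tiles of all coding genes. E2F letters were in 1 of 40 (2.5%) and 1.04%, and the SOX core, absent from these 300 bases, in 16 of 40 (40%) and 48.9%.
Cdkn1a intron: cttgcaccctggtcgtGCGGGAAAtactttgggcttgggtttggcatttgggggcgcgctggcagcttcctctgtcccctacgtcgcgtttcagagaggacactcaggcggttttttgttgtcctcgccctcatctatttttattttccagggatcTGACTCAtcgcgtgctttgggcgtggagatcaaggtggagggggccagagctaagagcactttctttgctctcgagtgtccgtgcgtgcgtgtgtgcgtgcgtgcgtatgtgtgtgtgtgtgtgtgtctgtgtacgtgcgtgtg

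The other tiles with a mean of at least 10 were those of Aurkb, Ccnd3, Cdk6 and Cdk4. The tile of Aurkb, between genes at chr11:69041147-69041646, had 21.7 and 16.8 uninjured and 23.2 and 15.2 at 1 d.p.i., with nearly equal group means. The intronic tile of Ccnd3, at chr17:47511051-47511550, had 5.01 and 19.8 against 22.0 and 19.1, and uninjured M, from 2 fragments, was the low library. The intronic tile of Cdk6, at chr5:3435985-3436484, had 18.7 and 4.74 against 21.2 and 8.67, with both M libraries above both F libraries. The tile in the window of Cdk4, at chr10:127068034-127068533, lay in an exon of the neighbouring gene Tspan31. It had 5.19 and 6.21 uninjured and 9.44 and 20.6 at 1 d.p.i., and its injured libraries were both higher, from 4, 14, 7 and 10 fragments.

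Further genes of the cell cycle, in lists of 41 genes of S phase, 47 of G2 and M phase and 34 regulators, were read in the same way. limma called 0 genes of the 3 lists in promoters and 0 in gene bodies. At an unadjusted p under 0.05, promoters gave 1 higher and 1 lower gene, both of the G2 and M list, and gene bodies gave 1 higher and 1 lower of the S phase list and 1 lower regulator. The median log2 changes were 0.01 (S phase), −0.05 (G2 and M) and −0.12 (regulators) in promoters and −0.01, −0.03 and −0.01 in gene bodies, close to those over all genes tested. In promoters the largest non-overlapping change each way was that of Kif4, a chromosome motor, with 2.43 and 2.67 uninjured and 0.779 and 0.00 at 1 d.p.i. (limma adjusted p = 1.00), and that of Cks2, a CDK subunit, with 2.75 and 7.37 against 9.89 and 7.66. In gene bodies it was that of Tipin, a replication fork factor, with 1.39 and 1.68 against 0.944 and 0.758 (limma adjusted p = 0.626), and that of Rfc4, a clamp loader subunit, with 0.780 and 1.74 against 2.16 and 2.69. The limma adjusted p of Rfc4 was 0.570. The groups of these 4 genes did not overlap, and their adjusted p-values were all above the threshold.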

How the data were processed

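SOX9 CUT&Tag and secondary-only controls were profiled in 8 libraries, 2 per group, M and F. The submitters' processing notes name Bowtie2 2.5.4, Picard 3.4.0 and SEACR 1.3 and the build mm10. The signal the authors deposited is the coverage of each library as whole numbers of fragments over stretches of the genome, without scaling for depth. The step that wrote this coverage is not given in the sources used here. The 20283253 stretches were all read, and none overlapped another of its library.

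Coverage per base in each window was divided by the library mean over the assembled chromosomes, with genes and TSSs from GENCODE M21. Each rise of the coverage was taken as that many fragment starts, so that fragments starting at a base where another ends can be missed. limma 3.58.1 in R 4.3.3 was fitted with a mean-variance trend to log2(coverage + 0.5) of the 4 SOX9 libraries, over coding genes with a mean of at least 0.5, with Benjamini-Hochberg adjustment over all of them. Fold changes are on that scale, which understates the change of low windows. Summed coverage was compared by two-sided exact permutation tests. Counting intervals are exact, at the 95% level. Other steps used Python 3.11.15, numpy 2.4.6, scipy 1.17.1, pandas 2.3.3 and matplotlib 3.10.9. The fit was tested on simulated data, whose outcome is not given here, so nothing is read from it.

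Genes named with every library's value were the 8 highest and 4 lowest promoters, any member called, members whose groups did not overlap (the 6 largest changes each way), Mki67, Top2a, the D cyclins, Cdkn1a and Cdkn1b, and in further lists the largest non-overlapping change each way. Mcm6, the CpG-rich class, the Cdkn1a tile and the other printed sequences were chosen after values were seen. The members and lists were chosen with earlier results of these data known. Alternatives covered scaling, depth, pseudocounts, filters, the model, windows and each library left out.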

Additional observations from a re-analysis of the deposited data

Results flagged for a closer look

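In several results the M pair and the F pair of libraries moved in opposite directions from uninjured to 1 d.p.i. Each sex has 1 library per group, so how far M and F differ was not tested. The value given is the log2 difference between 1 d.p.i. and uninjured in M minus that in F. For the summed promoter coverage of the 40 members it was 1.11, from 0.50 in M and −0.61 in F, beside 1.13 over all coding promoters. For the summed gene body coverage it was 0.56, from 0.28 and −0.28, beside 0.32 over all coding gene bodies.

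Single promoters were looked at for 27 members, the 8 highest and 4 lowest promoters by mean, those whose promoter or gene body groups did not overlap, Mki67, Top2a, the D cyclins, Cdkn1a and Cdkn1b. Of these 27, 13 were higher in M and lower in F at 1 d.p.i., and 24 of all 40 members (60%) had opposite signs, against 64.7% of all promoters tested. The gap was 3.51 for the proliferation marker Mki67, where uninjured M had 1 fragment, 2.04 for the B cyclin Ccnb2 and 2.03 for the polymerase clamp Pcna. For the D cyclins it was 1.85 (Ccnd1) and 1.4 (Ccnd3), and for Ccne1 1.64. For the kinase Cdk4 it was 1.61 and for the inhibitor Cdkn1a 1.16. Among the licensing genes it was 1.56 (Mcm6), 1.17 (Cdt1) and 0.85 (Mcm4). For the topoisomerase Top2a it was 1.84 and for the kinesin Kif20a 1.37. Uninjured F was the deepest of the 4 SOX9 libraries and uninjured M the shallowest, and the part of depth in these differences was not tested.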

How the results depend on the processing

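Calls among the members were 0 under each of the 18 alternatives for promoters and 17 for gene bodies, and those of the further lists were 0 as well. Calls among all coding promoters (2) became 0 with trimmed-mean scaling, without a filter, in a fit of all 8 libraries and within 500 bp of the TSS, 1 with thinned libraries, a pseudocount of 2, a filter at 2 or the 5′ end of the gene record, 10 with median scaling, and 0 to 0 with a library left out. Calls among all gene bodies (1) became 8 with trimmed-mean scaling, 37 with fragment starts, 3 with a filter at 2, 0 with median scaling, thinning, 8 libraries, no trend, no flanks or no promoter windows, and 0 to 18 with a library left out. With the replicate block, which is sex, they were 1 for promoters and 28 for gene bodies, and 0 for the members. The M minus F differences of the 2 groups had a Pearson correlation across genes of −0.0926 in promoters, and none is given for gene bodies. Same-numbered libraries share a sex by their labels and were not treated as pairs.

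The ratio of summed promoter coverage (0.924) was 1.01 with median scaling and 0.713 to 1.31 with a library left out, the high end without uninjured F. That of gene bodies (0.991) was 1.00 with median scaling (1.0044), 1.07 without flanks, 1.06 without promoter windows and 0.863 to 1.16 with a library left out, where leaving out 1 d.p.i. F gave 1.04. Non-overlapping promoters of members were 6 higher with median scaling (3 as reported). With a library left out they were 3 to 22 higher and 7 to 30 lower. Non-overlapping gene bodies were 0 higher and 3 lower with trimmed-mean scaling, 6 higher with median scaling, 3 lower with fragment starts, 1 higher after thinning, 5 higher and 3 lower without flanks and 9 higher without promoter windows (2 and 5 with the settings reported). With a library left out they were 4 to 25 higher and 6 to 27 lower. For the other settings the shares over all promoters or gene bodies tested are not given, so those counts have no background beside them. The gene body of Rrm2 had a log2 change of 0.031 without flanks (−0.34 with them). The other 16 of the 17 changes followed kept their direction. In the shorter promoter window, from 250 bp upstream, 8 members had a SOX core, 0 AP-1, 13 CHR and 9 E2F letters. The ratio at the Cdkn1a tile (3.04) was 1.61, 2.12 and 1.97 in 3 windows chosen after seeing the data. Where an alternative changed a result, the cause was not tested. Fits with a library left out also rest on fewer libraries, and the part of that was not tested either. Where a group keeps a lone library, limma assumes that it varies like the other group. Depth limits single promoters, 9 of which had 3 or fewer fragments in a library, and the controls, of which no single promoter can be read.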
